A study of Homo sapiens with 6 samples.

Results

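The 10 integrin genes described here are ITGA8, ITGA4, ITGB7, ITGB1, ITGAL, ITGB2, ITGA6, ITGAE, ITGAX and ITGB3. The platform annotation assigns 23 of the 22277 probe sets on the array to them, and all 23 are described. The list was chosen from earlier results of these same arrays, in which ITGA8 was among the largest falls after siRRM1. The values of siRRM1 against scramble are therefore given for the listed genes as a description, with no p-value. Calls among them are counted further on, and nothing is read from those counts. Integrins are paired receptors on the cell surface, each made of 1 alpha and 1 beta chain, that bind matrix proteins and adhesion molecules of other cells. In myeloma the pairs alpha4 with beta1 and alpha4 with beta7 are known for holding plasma cells to the fibronectin and VCAM1 of the bone marrow. An integrin chain generally reaches the surface only with its partner, so transcript levels of 1 chain do not give the number of receptors.

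Gene expression was measured on 6 oligonucleotide arrays in NCI-H929, an established human multiple myeloma cell line, as log2 signals. All cells were electroporated with small interfering RNA (siRNA) and collected 24 h later. The 3 groups of 2 arrays received a non-targeting scramble siRNA as control, siRNA against RRM1 (siRRM1) or siRNA against RRM2 (siRRM2), the genes of the large and small subunits of ribonucleotide reductase. The study is 1 cell line with 1 time point, and separate cultures for the arrays within a group are not stated in the labels, so every p-value covers only the spread between these arrays. The cells are measured in bulk, so fewer cells with a transcript and less transcript per cell cannot be told apart.

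The replicates of a group correlated at r = 0.993 to 0.996 across genes, which are not independent replicates. Each siRNA lowered its own target on both arrays: siRRM1 left 22.4% and 11.7% of the scramble mean of RRM1, and siRRM2 left 21.2% and 39.6% of RRM2. All 8 plasma cell markers on the list used here passed the filter on dim signals. Of the markers of other cell types, 3 of 8 T and NK cell genes, 3 of 7 myeloid genes, 3 of 6 platelet genes and 2 of 7 stromal genes passed it. The summed linear signal of the myeloid genes was 190 to 206 in scramble, 650 to 1500 in siRRM1 and 331 to 690 in siRRM2. The stromal sum was 383 to 384, 734 to 835 and 550 to 579 in the same order. The platelet sum was 238 to 260, 233 to 241 and 257 to 259, and the T and NK sum 295 to 314, 304 to 344 and 327 to 339. The plasma cell sum was 26666 to 27995 in scramble, 22291 to 23537 in siRRM1 and 25719 to 28213 in siRRM2. In siRRM1, 3 of 3 tested myeloid genes, 1 of 2 stromal genes and 1 of 8 plasma cell genes were called. Of all genes 15.5% were called, and the plasma cell share was near that. A marker dim in scramble could pass the filter only by rising, so nothing is read from the myeloid and stromal counts. The markers called in siRRM1 were S100A8, a neutrophil and monocyte protein (log2 4.23, limma adjusted p = 0.00562), S100A9 and CSF1R among the myeloid genes, ACTA2 among the stromal genes (2.10, adjusted p = 0.000180) and the plasma cell factor IRF4 (-0.63, adjusted p = 0.0449). The 3 myeloid calls were 1 with siRRM1 replicate 2 left out and 2 with scramble replicate 1 left out. The plasma cell count, 1, was 0 with either of those arrays or siRRM2 replicate 2 left out and 3 with siRRM1 replicate 1 left out. All 8 plasma cell markers had siRRM1 arrays that did not overlap scramble, where 59.3% of all genes did not. Their median log2 difference was -0.27. ACTA2 also rose in siRRM2 (1.31, adjusted p = 0.00408). COL1A1, the other stromal gene above the filter, differed by 0.04 in siRRM1 (limma adjusted p = 0.891) and 0.05 in siRRM2 (0.903). The markers under the filter included CD14, LYZ, MPO, CD3D, CD3G and ITGA2B, while other genes of the same lists passed it, as counted above. The part of these marker levels in the results on integrins was not tested. As a sign of RNA quality, the log2 difference of the ACTB control probe sets, 3′ end minus 5′ end, was 0.34 and 0.15 in scramble, 0.030 and 0.33 in siRRM1, and 0.048 and 0.051 in siRRM2. For GAPDH it was -0.017 and -0.093 in scramble, -0.112 and -0.013 in siRRM1, and -0.102 and -0.102 in siRRM2. For both transcripts the siRRM1 arrays overlapped scramble and the siRRM2 arrays lay below it, only narrowly for GAPDH. The part of RNA quality in the results was not tested.

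The RefSeq promoter table (GRCh38.p14) held an entry for 6 of the 10 genes: ITGA8, ITGA4, ITGB7, ITGB1, ITGA6 and ITGAE. The 250 bases before the transcription start are shown for ITGA8, ITGA4 and ITGB7. ITGA8 and ITGA4 are the alpha chains called lower in siRRM1, the comparison on which the list was chosen. ITGB7, a beta chain that pairs with alpha4, was not called there. Letters are in the direction of the gene, 5′ to 3′, and capitals mark the GC box.
ITGA8, chr10:15719923-15720172, minus strand: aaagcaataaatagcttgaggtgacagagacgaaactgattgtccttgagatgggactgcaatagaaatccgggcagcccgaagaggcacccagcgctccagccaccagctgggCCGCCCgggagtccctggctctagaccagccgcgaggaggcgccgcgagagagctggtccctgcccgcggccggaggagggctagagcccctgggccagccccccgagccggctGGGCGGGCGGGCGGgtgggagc
ITGA4, chr2:181457136-181457385, plus strand: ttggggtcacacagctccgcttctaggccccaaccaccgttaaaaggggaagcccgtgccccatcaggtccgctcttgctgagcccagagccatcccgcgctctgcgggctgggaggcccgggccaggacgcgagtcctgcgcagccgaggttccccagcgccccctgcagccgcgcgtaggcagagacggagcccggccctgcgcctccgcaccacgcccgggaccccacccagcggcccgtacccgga
ITGB7, chr12:53207252-53207501, minus strand: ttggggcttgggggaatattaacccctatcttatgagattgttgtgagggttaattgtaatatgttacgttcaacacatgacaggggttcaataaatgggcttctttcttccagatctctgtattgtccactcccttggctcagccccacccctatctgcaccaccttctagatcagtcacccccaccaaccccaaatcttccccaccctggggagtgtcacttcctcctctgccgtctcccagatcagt

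The motifs searched, on both strands, were the GC box GGGCGG, the CCAAT box CCAAT, the TATA box TATAAA, the E-box CACGTG and the cell cycle element core TTTGAA. Of these, the ITGA8 window held the GC box 4 times and none of the other motifs. Its 3 copies nearest the start overlap one another and begin 22, 18 and 14 bases before it, and the copy on the opposite strand begins 136 bases before it. The ITGA4 and ITGB7 windows held none of the 5 sets of letters. Over all 35116 promoter windows of this length, 42.6% held the GC box, 32.0% CCAAT, 10.7% TATAAA, 6.34% CACGTG and 13.3% TTTGAA. The windows are 68.0% G and C in ITGA8, 72.8% in ITGA4 and 49.6% in ITGB7. A match is a string of letters and not a shown binding site.

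ITGA8 was the integrin with the largest difference. It encodes the alpha8 chain, which pairs with beta1 and binds matrix proteins such as nephronectin, fibronectin and tenascin-C. Its only probe set, 214265_at, read log2 10.40 and 9.92 in scramble, 8.98 and 8.15 in siRRM1, and 9.54 and 9.01 in siRRM2. Both knockdown groups lay wholly below scramble, and the siRRM1 arrays lay below the siRRM2 arrays, with the nearest 2 arrays of those groups at 8.98 and 9.01. The siRRM1 arrays kept 44.1% and 24.9% of the scramble mean, and the siRRM2 arrays 65.0% and 45.1%.

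The log2 difference of ITGA8 from scramble was -1.59 in siRRM1 (SE 0.29, n = 2 arrays a group), a 3.02-fold lower level. The SE here is that of the fit over all genes. Among the 7936 genes tested this was the 3rd lowest difference in siRRM1, which is the value that brought the gene onto the list. It was -1.35 without scramble replicate 1 and -1.18 without siRRM1 replicate 2. In siRRM2 the log2 difference was -0.89, a 1.85-fold lower level that ranked 9th lowest of all genes and did not pass the threshold of a limma adjusted p under 0.05 (adjusted p = 0.150, 95% interval -1.57 to -0.20 before adjustment). Between the knockdowns the siRRM1 level was lower by a log2 difference of -0.71, which did not pass (adjusted p = 0.475, interval -1.39 to -0.03). That difference was -0.29 with siRRM1 replicate 2 left out, -0.45 with siRRM2 replicate 1 left out and -1.12 with siRRM1 replicate 1 left out. The 3 comparisons share arrays and are not independent of each other. The siRRM2 comparison uses the same scramble arrays as the comparison on which the list was chosen. In all 3 groups the replicate 1 array read higher than the replicate 2 array, by 0.48 in scramble, 0.83 in siRRM1 and 0.53 in siRRM2.

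**Figure D1:**
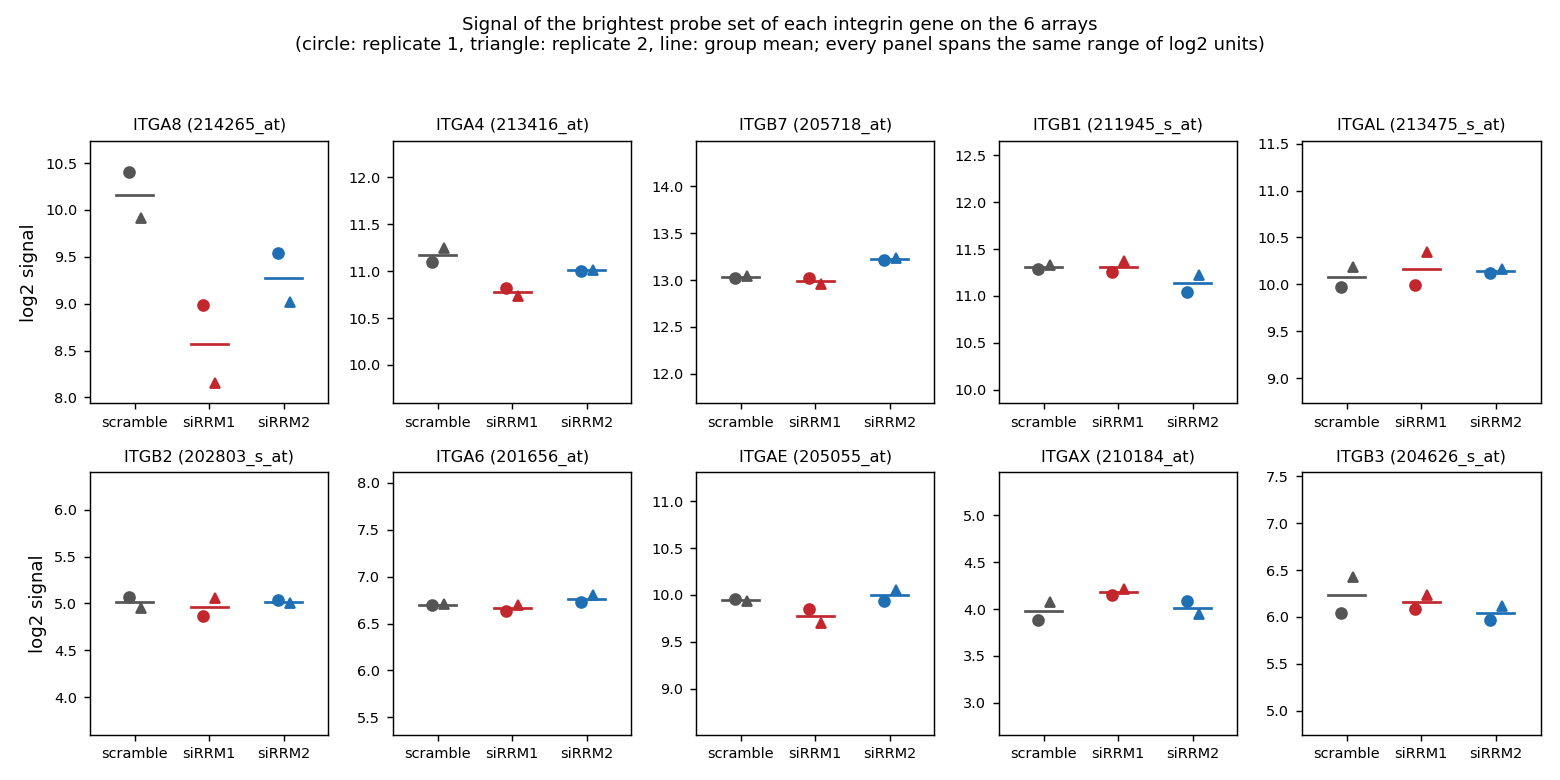
The log2 signal (vertical axis) of the brightest probe set of each of the 10 integrin genes is plotted by group, with a circle for replicate 1, a triangle for replicate 2 and a line for the mean of the 2 arrays. Every panel spans the same range of log2 units around its own mean, and ITGA8 shows the widest separation, from 10.40 in scramble down to 8.15 in siRRM1.

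ITGA4 encodes alpha4, the shared alpha chain of the alpha4beta1 and alpha4beta7 receptors for VCAM1, fibronectin and MAdCAM-1. Its brightest probe set, 213416_at, read 11.10 and 11.25 in scramble, 10.82 and 10.74 in siRRM1, and 11.0019 and 11.0178 in siRRM2. The 3 groups did not overlap, with siRRM1 lowest and siRRM2 between. The log2 difference from scramble was -0.40 in siRRM1 (SE 0.093), a 1.32-fold lower level, and -0.17 in siRRM2 (limma adjusted p = 0.360, 95% interval -0.39 to 0.05). The siRRM2 value was -0.09 with scramble replicate 2 left out. Between the knockdowns it was -0.23 (adjusted p = 0.455, interval -0.45 to -0.02).

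The other ITGA4 probe sets gave a similar mean difference in siRRM1 with an uneven spread over the arrays. Probe set 205885_s_at read 9.78 and 9.49 in scramble, 9.44 and 8.83 in siRRM1, and 9.48 and 9.37 in siRRM2. Probe set 205884_at read 9.50 and 9.32 in scramble, 9.30 and 8.57 in siRRM1, and 9.38 and 9.25 in siRRM2. Their log2 differences in siRRM1 were -0.50 and -0.48, and in both cases siRRM1 replicate 2 was far below every other array while siRRM1 replicate 1 was close to scramble replicate 2. With the mean of the 3 probe sets as the ITGA4 value, the log2 difference in siRRM1 was -0.46. With 213416_at alone the difference was -0.36 without siRRM1 replicate 2. In siRRM2 the values of the other probe sets were -0.21 and -0.10 (adjusted p = 0.625 and 0.863 in the fit over probe sets).

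**Figure D2:**
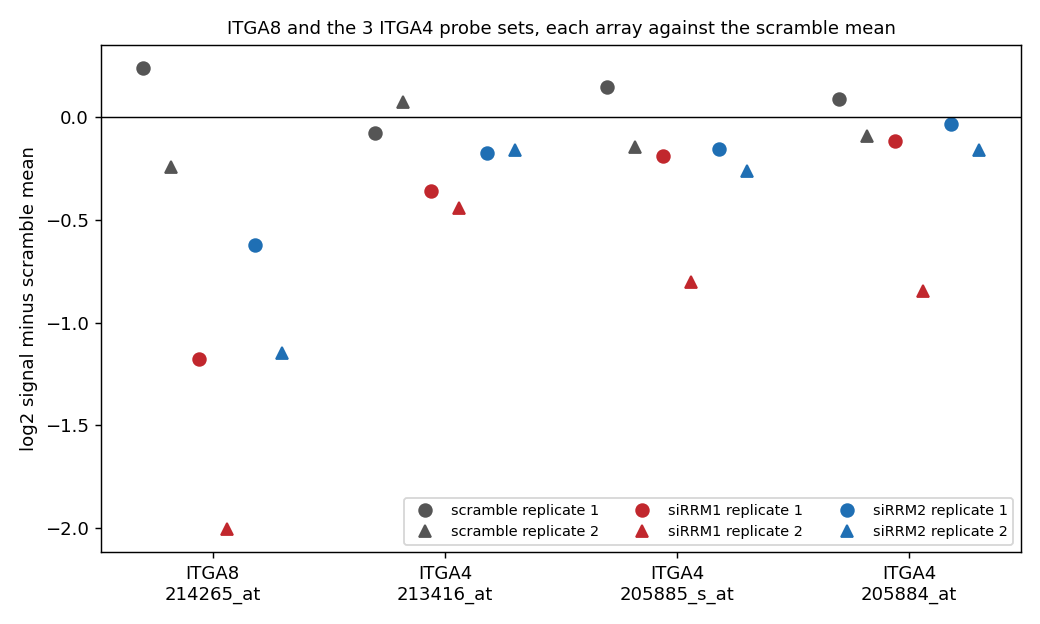
The log2 signal minus the scramble mean (vertical axis) is plotted for each of the 6 arrays at the ITGA8 probe set and the 3 ITGA4 probe sets. On 205885_s_at and 205884_at siRRM1 replicate 2 stands alone at the bottom, while on 213416_at both siRRM1 arrays lie together below the rest.

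In siRRM1 the beta partners of these alpha chains had smaller differences. In siRRM2 the differences of ITGB1 (-0.17) and ITGB7 (0.20) were about as large as that of ITGA4 on 213416_at (-0.17). ITGB1 encodes beta1, the common partner of alpha4, alpha6 and alpha8. On 211945_s_at it read 11.29 and 11.33 in scramble, 11.25 and 11.37 in siRRM1, and 11.05 and 11.23 in siRRM2. The siRRM1 arrays lay on both sides of scramble, and the siRRM2 arrays lay just below it. The log2 difference was 0.0017 in siRRM1 (95% interval -0.23 to 0.23) and -0.17 in siRRM2 (limma adjusted p = 0.376, interval -0.41 to 0.06). The 4 other ITGB1 probe sets were dim, at or below the 7.5th percentile of brightness among all probe sets, and were not tested.

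ITGB7 encodes beta7, the partner of alpha4 and alphaE. Its probe set 205718_at was among the brightest on the array, at the 99.0th percentile. It read 13.02 and 13.04 in scramble, 13.02 and 12.96 in siRRM1, and 13.22 and 13.24 in siRRM2. The siRRM2 arrays lay above all others, and siRRM1 overlapped scramble. The log2 difference was -0.04 in siRRM1 (95% interval -0.23 to 0.16) and 0.20 in siRRM2, which did not pass (limma adjusted p = 0.239, interval 0.0026 to 0.40). Between the knockdowns it was -0.24 (adjusted p = 0.416, interval -0.43 to -0.04).

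ITGAE encodes alphaE, which pairs with beta7 and binds E-cadherin. Probe set 205055_at read 9.96 and 9.94 in scramble, 9.85 and 9.70 in siRRM1, and 9.94 and 10.05 in siRRM2. The siRRM1 arrays lay below the other 4, by a log2 difference of -0.17 from scramble (95% interval -0.40 to 0.05). In siRRM2 the difference was 0.04 (limma adjusted p = 0.845). ITGA6 encodes alpha6, a laminin receptor chain. It read 6.70 and 6.71 in scramble, 6.64 and 6.70 in siRRM1, and 6.73 and 6.80 in siRRM2 on 201656_at, with log2 differences of -0.03 and 0.06 (adjusted p = 0.747 in siRRM2). Its other probe set, 215177_s_at, gave -0.07 and -0.13.

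The leukocyte integrins of the beta2 class showed small differences. ITGAL encodes alphaL, which with beta2 forms LFA-1, the receptor for the ICAM adhesion molecules. Probe set 213475_s_at was bright, at the 90.8th percentile, and read 9.97 and 10.18 in scramble, 9.99 and 10.35 in siRRM1, and 10.12 and 10.17 in siRRM2. The groups overlapped, with log2 differences of 0.09 in siRRM1 (95% interval -0.23 to 0.41) and 0.06 in siRRM2 (limma adjusted p = 0.845, interval -0.25 to 0.38). ITGB2, the gene of beta2, has 1 probe set, 202803_s_at, which lay at the 33.1st percentile and under the filter. It read 5.07 and 4.96 in scramble, 4.86 and 5.06 in siRRM1, and 5.03 and 5.00 in siRRM2, with the groups overlapping. ITGAX, the gene of the myeloid chain alphaX, lay lower still, at the 18.9th percentile, with values from 3.89 to 4.21 over the 6 arrays. The deposited values hold no detection call, so whether these dim probe sets measured any transcript is unknown. The myeloid sum was higher after both knockdowns, while the ITGB2 and ITGAX probe sets were under the filter in all groups. The relation of these values was not tested.

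ITGB3 encodes beta3, the chain of the platelet integrin and of the alphavbeta3 vitronectin receptor. It has 7 probe sets, of which 2 passed the filter. The brightest, 204626_s_at, read 6.04 and 6.42 in scramble, 6.08 and 6.23 in siRRM1, and 5.96 and 6.11 in siRRM2. The groups overlapped, with log2 differences of -0.08 and -0.19 (limma adjusted p = 0.486 in siRRM2). The other, 204628_s_at, lay just inside the filter at the 41.1st percentile, and the nearest ITGB3 probe set outside it, 204625_s_at, was at the 37.8th. In all, 12 of the 23 integrin probe sets passed the filter and stand for 8 of the 10 genes. The 11 that did not had log2 differences from -0.28 to 0.20 in siRRM1 and from -0.24 to 0.12 in siRRM2.

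**Figure D3:**
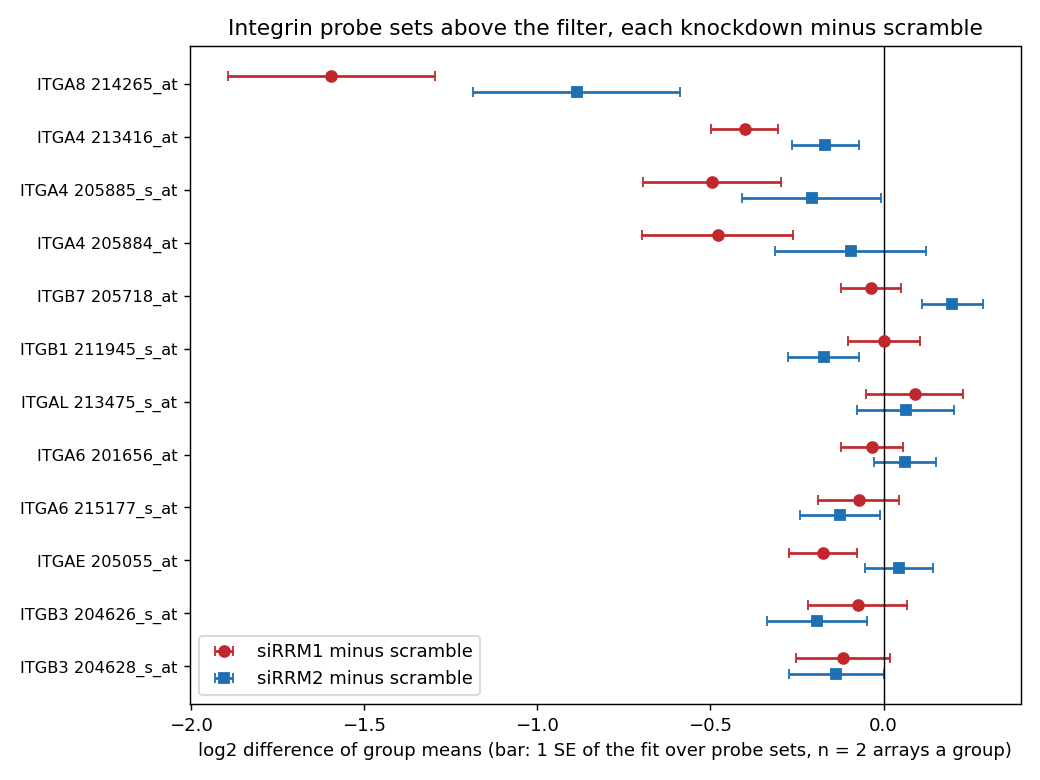
Log2 differences from scramble (horizontal axis) are plotted for the 12 integrin probe sets above the filter, with circles for siRRM1, squares for siRRM2 and bars of 1 SE from the fit over all probe sets (n = 2 arrays a group). ITGA8 at -1.59 and -0.89 lies farthest from 0. The 3 ITGA4 probe sets lie between -0.50 and -0.40 in siRRM1 and between -0.21 and -0.10 in siRRM2. The other chains lie between -0.17 and 0.09 in siRRM1 and between -0.19 and 0.20 in siRRM2.

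Over the 8 genes tested, the median log2 difference was -0.06 in siRRM1 and -0.06 in siRRM2, against -0.0092 and -0.0033 over all genes tested. In siRRM1, 2 of the 8 genes, ITGA8 and ITGA4, were called lower and 0 higher, where 15.5% of all genes were called in either direction. Among the 12 integrin probe sets the count was also 2, with 12.1% of all probe sets called. They were 214265_at of ITGA8 and 213416_at of ITGA4, and the other ITGA4 probe sets were not called. Since the list was chosen on that comparison, nothing is read from these counts or from their refits in the closing section. Both counts were 0 with scramble replicate 1 left out or with siRRM1 replicate 2 left out. With scramble replicate 2 or either siRRM2 array left out they were 1.

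In siRRM2, 0 of the 8 genes and 0 of the 12 probe sets were called by limma, with 2.52% of all genes and 1.32% of all probe sets called. At an unadjusted p under 0.05 there were 2 of the 8 genes, ITGA8 and ITGB7, which differed in opposite directions, where 20.4% of all genes were under it. The scramble arrays of this comparison were also those on which the list was chosen, so nothing is read from that count either. Between the knockdowns 0 of 8 genes and 0 of 12 probe sets were called, with 0.164% and 0.0374% over the whole array. An unadjusted p under 0.05 was found for 3 genes, ITGA8, ITGA4 and ITGB7, all lower in siRRM1, and for 10.0% of all genes. This comparison holds the siRRM1 arrays on which the list was chosen, so nothing is read from that count. Groups without overlap were found for 3 of the 8 genes in siRRM1 (59.3% of all genes), 5 in siRRM2 (54.7%) and 6 between the knockdowns (40.8%).

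Genes that follow ITGA8 over the 6 arrays were named by the highest Pearson correlation among all tested genes, as a description with no p. The 5 closest were SLC25A4, the mitochondrial ADP/ATP carrier (r = 0.996), ZNF74 (0.996), POLR2H, an RNA polymerase subunit (0.995), UBE2N, a ubiquitin-conjugating enzyme (0.995), and SCYL3 (0.995). Their log2 differences from scramble were far smaller than that of ITGA8, from -0.35 in SLC25A4 to -0.08 in SCYL3 in siRRM1. Among the listed integrins ITGA4 had the highest correlation with ITGA8 (0.842), followed by ITGAE (0.633), and ITGAL had the lowest (-0.648). The 6 arrays share 3 groups and 1 normalization, and many genes that differ between the groups correlate with one another.

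The other integrin genes include 13 on the array with a single gene name, of which 7 passed the filter. ITGA7, the alpha chain of a laminin receptor of muscle, was the 1 gene called there in siRRM1, a share near the 15.5% of all genes, and it rose by a log2 difference of 0.85 (SE 0.17, limma adjusted p = 0.0191). Its probe set 216331_at read 7.44 and 7.46 in scramble, 8.02 and 8.57 in siRRM1, and 7.94 and 8.19 in siRRM2. Both knockdown groups lay above scramble, but the siRRM2 difference of 0.62 did not pass (adjusted p = 0.109). The other ITGA7 probe set gave 0.42 and 0.41. Leaving out scramble replicate 1 (adjusted p = 0.0758), scramble replicate 2 (0.0574) or siRRM1 replicate 2 (0.0724) ended the ITGA7 call in siRRM1. ITGAV, the partner of beta3, had log2 differences of -0.17 (adjusted p = 0.390) and 0.07 (adjusted p = 0.801). ITGB5, another partner of alphav, differed between its probe sets. The brightest, 201125_s_at, gave 0.07 in siRRM1 and 0.22 in siRRM2 (adjusted p = 0.210), while 214021_x_at gave 0.71 and 0.67. The median over the 7 genes was 0.17 in siRRM1 and 0.20 in siRRM2.

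Of 13 tested ligands of integrins, 7 were called higher and 0 lower in siRRM1, where 15.5% of all genes were called in either direction. The list was chosen with earlier results of these data known. A ligand dim in scramble could pass the filter only by rising, so no direction of the list is read from this count. LAMB3, a laminin chain, rose by log2 1.68 (SE 0.24, limma adjusted p = 0.00556), with arrays at 5.08 and 5.75 in scramble, 6.88 and 7.31 in siRRM1 and 6.26 and 6.60 in siRRM2. TNC, the matrix glycoprotein tenascin-C and a ligand of alpha8beta1, rose by 2.71 (SE 0.41, adjusted p = 0.00726). The scramble means of LAMB3, 5.42, and TNC, 5.05, lay under the filter of log2 5.44. Both genes were tested only because of their higher knockdown arrays. The laminin chain LAMC1 rose by 0.44 (adjusted p = 0.0169). The TNC call was lost without siRRM1 replicate 2 (log2 2.25, adjusted p = 0.0536). The others were ICAM3 and ICAM1, ligands of LFA-1, LTBP1 and FN1, which encodes fibronectin. In siRRM2, 0 of the 13 were called by limma (2.52% of all genes), and 4 had an unadjusted p under 0.05 (20.4% of all genes). The smallest were those of LAMB3 (log2 1.02, adjusted p = 0.0708) and ICAM3 (0.42, adjusted p = 0.0807). The siRRM1 count was lower in every fit that left out 1 of the 6 arrays, and lowest without siRRM1 replicate 2. The median was 0.44 in siRRM1 and 0.21 in siRRM2. The myeloid and stromal sums above were also higher in siRRM1 than in scramble, and their part in the ligand count was not tested.

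Genes that switch integrins on showed 1 call in 10 tested in siRRM1, below the 15.5% of all genes. FERMT2, which encodes the integrin-binding protein kindlin-2, rose in siRRM1 by log2 0.81 (SE 0.15, limma adjusted p = 0.0135). Leaving out scramble replicate 1 (adjusted p = 0.0662) or siRRM1 replicate 2 (0.0823) ended that call. In siRRM2, 0 of these genes were called, and 0 had an unadjusted p under 0.05. The 2 with the smallest p there were RAP1B, a small GTPase of integrin activation (log2 -0.21, adjusted p = 0.252), and DOK1 (0.18, adjusted p = 0.358), an adaptor that binds beta tails.

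Downstream adaptors and kinases showed 5 higher and 0 lower of 23 tested in siRRM1, beside 15.5% of all genes called. As with the ligands, no direction of the list is read from this count. The called genes were VASP, an actin regulator of focal adhesions (log2 0.77, limma adjusted p = 0.00340), ACTN1, alpha-actinin (0.80, adjusted p = 0.0155), PXN, the scaffold paxillin (0.65, adjusted p = 0.0208), NEDD9 and FYN. The count was 1 with siRRM1 replicate 2 left out, 2 with scramble replicate 1 left out and 3 with scramble replicate 2 left out, and ACTN1 and PXN were not called in the first 2 of these fits. In siRRM2 the count was 0 by limma, with 10 of 23 at an unadjusted p under 0.05 (20.4% of all genes), and the smallest p was that of PTK2B, a focal adhesion kinase relative (0.41, adjusted p = 0.0800). The median was 0.24 in siRRM1 and 0.11 in siRRM2.

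Tetraspanins, membrane proteins that associate with integrins, gave 2 calls of 9 in each knockdown, all higher, beside 15.5% of all genes called in siRRM1 and 2.52% in siRRM2. CD9 rose by log2 1.95 in siRRM1 (SE 0.20, limma adjusted p = 0.00154) and by 1.22 in siRRM2 (adjusted p = 0.0275). CD63 rose in siRRM1 (0.49, adjusted p = 0.0181) and CD81 in siRRM2 (0.56, adjusted p = 0.0333). The siRRM1 count was 1 without scramble replicate 1 or siRRM1 replicate 2. The siRRM2 count was 0 without scramble replicate 1 or siRRM2 replicate 2, and 1 without scramble replicate 2 or siRRM2 replicate 1.

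Among 11 tested adhesion receptors outside the integrin family, 2 rose and 1 fell in siRRM1, beside 15.5% of all genes called. PECAM1, an adhesion molecule of endothelium and leukocytes, read 8.79 and 8.77 in scramble, 9.57 and 9.59 in siRRM1, and 9.91 and 9.83 in siRRM2. It rose by log2 0.80 in siRRM1 (SE 0.085, limma adjusted p = 0.00200) and by 1.09 in siRRM2 (adjusted p = 0.00408), where it was the 1 receptor called. Of its other probe sets, 208981_at gave 0.56 and 0.94, and 208983_s_at gave 0.38 and 0.94 with siRRM1 overlapping scramble. CD58, the ligand of CD2, rose in siRRM1 (0.65, adjusted p = 0.00715). CXCR4, the chemokine receptor known for homing plasma cells to bone marrow and for activating alpha4beta1, read 6.60 and 6.43 in scramble, 5.83 and 5.50 in siRRM1, and 6.26 and 6.24 in siRRM2 on 217028_at. In siRRM1 it fell by 0.85, a log2 difference (SE 0.13, adjusted p = 0.00636). Its other probe sets, 209201_x_at and 211919_s_at, gave only -0.15 and -0.17. The 2 higher calls in siRRM1 were also 2 in each fit that left out an array. The lower count was 1 in each of those fits except the one without siRRM1 replicate 1, where it was 2.

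**Figure D4:**
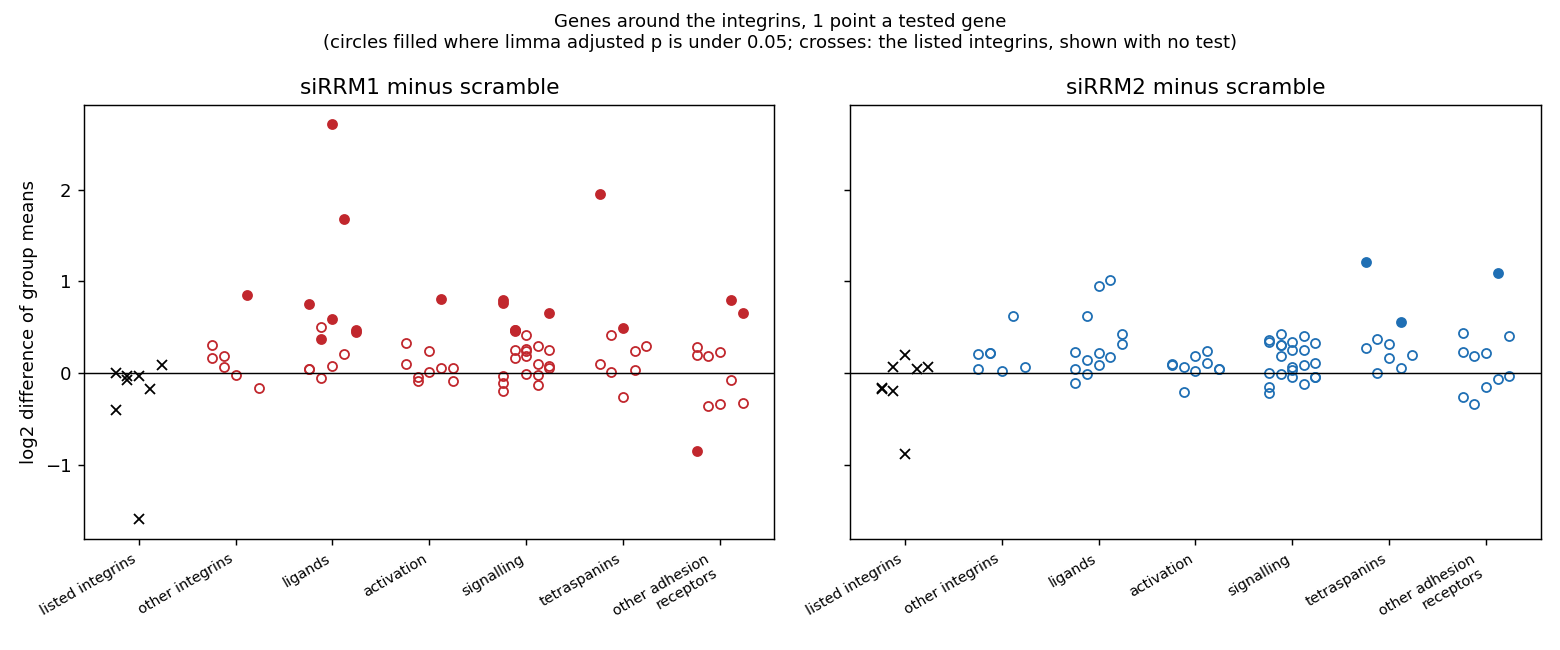
Log2 differences from scramble (vertical axis) are plotted for the tested genes of each list in siRRM1 (left) and siRRM2 (right), with 1 point a gene, circles filled where the limma adjusted p is under 0.05 and crosses for the listed integrins, which carry no test. In siRRM1 the filled points of the ligand and signalling lists lie above 0, with TNC highest at 2.71. A gene dim in scramble, such as TNC, could pass the filter only by rising, so no direction of a list is read from these points. ITGA8 is the lowest point in both panels.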

How the data were processed

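The values are log2 signals as deposited by the authors for 22277 probe sets on 6 arrays. Their summary and normalization steps are not given in the sources used here. Per the labels' protocols, biotin-labelled cRNA was made from total RNA. The array medians lay between 6.11 and 6.16, so no further scaling was applied. The log2 scale was read from the values.

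The platform annotation gives 19070 probe sets 1 gene symbol, 1043 several and 2164 none, and only the first kind was named. Gene IDs of 19058 matched the RefSeq gene table. Gene coordinates are left out because no source used here names the build of the probe sets. Each gene is represented by its brightest probe set (highest mean over the 6 arrays). Genes with that mean at or above the 40th percentile, log2 5.44, were tested, 7936 in all. A second fit took all 13366 probe sets above that level.

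Group differences were fitted by lmFit and eBayes of limma 3.58.1 (R 4.3.3) over all 6 arrays, with 3 residual degrees of freedom, two-sided, with Benjamini-Hochberg adjustment over all genes or probe sets, and called at an adjusted p under 0.05. Intervals are 95% intervals of that fit, unadjusted. The 2 arrays a group limit the precision. The script was tested on simulated data. The members and lists were chosen with earlier results of these data known. Named genes outside the 10 follow a rule: in each knockdown and list, the called genes of smallest adjusted p, at most 3 risen and 3 fallen, or the leading 2 by p if no gene was called. ICAM1, LTBP1, FN1, NEDD9, FYN and ITGAV were named after their values were seen. Figures were drawn with matplotlib 3.10.9. Alternatives are given in the closing section.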

Additional observations from a re-analysis of the deposited data

How the results depend on the processing

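ITGA8 and ITGA4 in siRRM1 were the integrin genes with a call to lose, and 9 of their 28 refits under alternatives lost it, 2 of ITGA8 and 7 of ITGA4. Of 296 refits of uncalled integrin differences 2 gained a call, and 0 of all refits reversed a called direction. In siRRM1 the count of integrin genes called, 2, was 1 with the mean of all probe sets of a gene and 1 with only the 4 arrays compared, and leaving out an array gave 0 to 2. For integrin probe sets it was 1 with no filter, 1 with only the 4 arrays compared, and 0 to 3 with an array left out. In siRRM2 and between the knockdowns, leaving out an array gave 0 called integrin genes and probe sets by limma. ITGA8 had a log2 difference of -1.64 in siRRM1 with arrays centred on their medians and -1.55 after quantile normalization, and ITGA4 -0.44 and -0.37. Over all genes, leaving out an array gave 307 to 1222 calls in siRRM1, 13 to 203 in siRRM2 and 2 to 16 between the knockdowns. As a share of all tested probe sets it gave 2.78% to 14.9%, 0.0449% to 1.00% and 0.0150% to 0.0374%. An intensity trend in eBayes gave 336 genes and 2.63% of probe sets in siRRM2, and 42 genes and 0.120% between the knockdowns. A filter at the 60th percentile gave 4 genes between the knockdowns and 2.30% of probe sets in siRRM2. No filter gave 6.49% of probe sets in siRRM1 and 0.678% in siRRM2. With only the 4 arrays compared, 6.95% of probe sets were called in siRRM1 and 3 genes between the knockdowns. The cause of these shifts was not tested, beyond the fewer arrays or genes in those fits.

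The labels do not say that equal replicate numbers pair the arrays, and there are 2 numbers a group. Deviations of same-numbered arrays from their group means correlated at 0.38 between siRRM1 and scramble, 0.36 between siRRM2 and scramble and 0.21 between the knockdowns. With the replicate block, 1 integrin gene and 1 integrin probe set were called in siRRM2, and 1 and 1 between the knockdowns. The gene was ITGA8 (limma adjusted p = 0.00295 and 0.0192). Over all features the replicate block gave 1904 genes and 20.4% of probe sets in siRRM1, 622 and 5.27% in siRRM2, and 153 and 0.756% between the knockdowns.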
